A study of Mus musculus with 12 samples.

Results

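Expression of 10 genes that sense microbes in the intestine, or that act just downstream of those sensors, was examined in mouse colon. The genes were taken by symbol from the deposited gene table, which held 10 of the 54532 genes under these names. They were the Toll-like receptor genes Tlr2, Tlr3, Tlr4 and Tlr5, the NOD receptor genes Nod1 and Nod2, the inflammasome sensor gene Nlrp6, the protease gene Casp1, the cytokine gene Il18 and the adaptor gene Myd88. All 10 passed the filter on low counts, which kept 16904 genes.

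RNA-Seq was performed on sections of whole colon from male, wild-type (WT) C57BL/6J mice aged 5 weeks, with 3 libraries in each of 4 groups. Dextran sodium sulfate (DSS), which damages the lining of the colon when it is drunk, was given to 3 of the groups at 3% in the water in the acute colitis experiment, and the control group had none. The model group had DSS and no drug, the Rhy group had DSS and Rhynchophylline (Rhy), an alkaloid, and the DXM group had DSS and the glucocorticoid dexamethasone (DXM) at 4 mg/kg. Rhy was given by mouth once a day for 7 days at 2, 4 or 8 mg/kg, and the dose of the sequenced mice was not given in the sources used here. The DXM group is in the labels but not in the RNA-Seq methods. Each library is named below by its group and number, and the labels state no more about how the libraries of a group are related, so p-values measure the spread between libraries. In bulk colon, fewer cells of a type and less RNA per cell cannot be told apart.

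Toll-like receptors bind conserved molecules of microbes at the cell surface or in endosomes, and most of them signal through the adaptor MyD88 to NF-kB. NOD1 and NOD2 bind peptidoglycan fragments in the cytosol. NLRP6, an inflammasome sensor known from the intestinal epithelium, can lead to activation of caspase-1, which cleaves the precursor of interleukin-18 into the secreted cytokine, and interleukin-18 is produced by the colonic epithelium and by myeloid cells.

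The sequences just before the start of Nlrp6, Casp1 and Il18 are shown because these genes stand for the sensor, the protease and the cytokine of 1 chain. Over the libraries, Nlrp6 and Casp1 were alike (Pearson r 0.757), and Il18 differed from both (−0.407 and −0.173). Each is the 250 bases before the RefSeq start on GRCm38.p6, at chr7:140920652-140920901 (+) for Nlrp6, chr9:5298267-5298516 (+) for Casp1 and chr9:50554450-50554699 (+) for Il18. Capitals mark the motif matches, which were an AP-1 and a xenobiotic response element match in Nlrp6.
Nlrp6: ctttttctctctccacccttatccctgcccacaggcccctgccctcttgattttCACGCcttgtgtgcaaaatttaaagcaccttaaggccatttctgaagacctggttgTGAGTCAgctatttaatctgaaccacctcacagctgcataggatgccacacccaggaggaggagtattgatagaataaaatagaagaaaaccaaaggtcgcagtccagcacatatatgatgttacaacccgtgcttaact
Casp1: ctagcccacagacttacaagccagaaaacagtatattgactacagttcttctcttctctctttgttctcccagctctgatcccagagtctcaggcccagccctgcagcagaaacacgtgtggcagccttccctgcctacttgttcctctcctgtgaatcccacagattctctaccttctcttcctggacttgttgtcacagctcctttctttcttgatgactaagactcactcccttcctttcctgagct
Il18: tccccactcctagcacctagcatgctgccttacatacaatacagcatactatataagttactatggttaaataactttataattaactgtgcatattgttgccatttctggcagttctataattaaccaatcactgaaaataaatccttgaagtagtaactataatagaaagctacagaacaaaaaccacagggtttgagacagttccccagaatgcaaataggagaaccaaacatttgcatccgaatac

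In all, 6 motifs were searched on both strands in these windows and in those of the other members with an entry, which made 9 members. An AP-1 match (TGANTCA) lay 140 to 134 bases before the start of Nlrp6, and 6.75% of the 32851 windows of all genes held one. A xenobiotic response element match (GCGTG), the core bound by the aryl hydrocarbon receptor, lay in the windows of Nlrp6 and Nod1, beside 28.2% of all windows. NF-kB matches lay in the windows of Tlr2 and Tlr3, beside 7.25% of all windows. The window of Myd88 held an interferon-stimulated response element match (2.98% of all windows) that overlapped a GAS match (TTCNNNGAA; 7.02%), and Nod1 held a further GAS match. The glucocorticoid response element (ACANNNTGT) was matched in 0 of the 9 member windows and in 5.84% of all windows. The windows of Casp1 and Il18 held no match to these letters.

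Total counts were 14346478 to 17749716 per library, and mitochondrial genes took 6.33% to 25.7% of them. All 12 markers of the colonic epithelium were detected in the samples. The libraries control 3, model 3 and Rhy 1 had between 0 and 1.49 CPM (the count scaled to library size) of Hoxb13, a gene of the distal colon and rectum, and the other 9 had 72.0 to 316.5 CPM. Model 1 and model 2 were more alike than any of the other 65 pairs of libraries, with a common dispersion, the variance between libraries beyond counting noise, of 0.00201 beside 0.0600 to 0.336. Leaving out the libraries low in Hoxb13 leaves model 1 and model 2 as the whole model group, counted in the fit as 2 replicates.

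Compared per length of gene, in FPKM, Casp1, Il18 and Nlrp6 had the highest mean levels of the 10 genes. Casp1 had the highest mean level, 103.1 FPKM with a range of 61.7 to 178.7 over the 12 libraries. Il18 followed at 74.1 FPKM (28.8 to 181.5) and Nlrp6 at 42.2 FPKM (12.9 to 69.0). Casp1 was above Il18 in 6 of 12 libraries and Il18 above Nlrp6 in 8 of 12, so the order among these 3 genes differed between libraries. Myd88, the shared adaptor, averaged 14.3 FPKM and was below Nlrp6 in 11 of 12 libraries.

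Among the receptors, Tlr2, which recognizes bacterial lipoproteins, averaged 9.02 FPKM and Tlr3, which recognizes double-stranded RNA, averaged 5.08 FPKM. Tlr2 was above Tlr3 in 7 of 12 libraries. Nod1 followed at 3.63 FPKM and Tlr4, the receptor of lipopolysaccharide, at 2.22 FPKM. Tlr5, the receptor of flagellin, averaged 0.739 FPKM and Nod2 0.658 FPKM. Tlr4 exceeded Tlr5 in 12 of 12 libraries, whereas Tlr5 exceeded Nod2 in 6 of 12. The ranges of all 9 neighbouring pairs in this order overlapped. The values of Tlr5 and Nod2 rested on few reads, 11 to 152 counts for Tlr5 and 21 to 102 for Nod2.

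**Figure D1:**
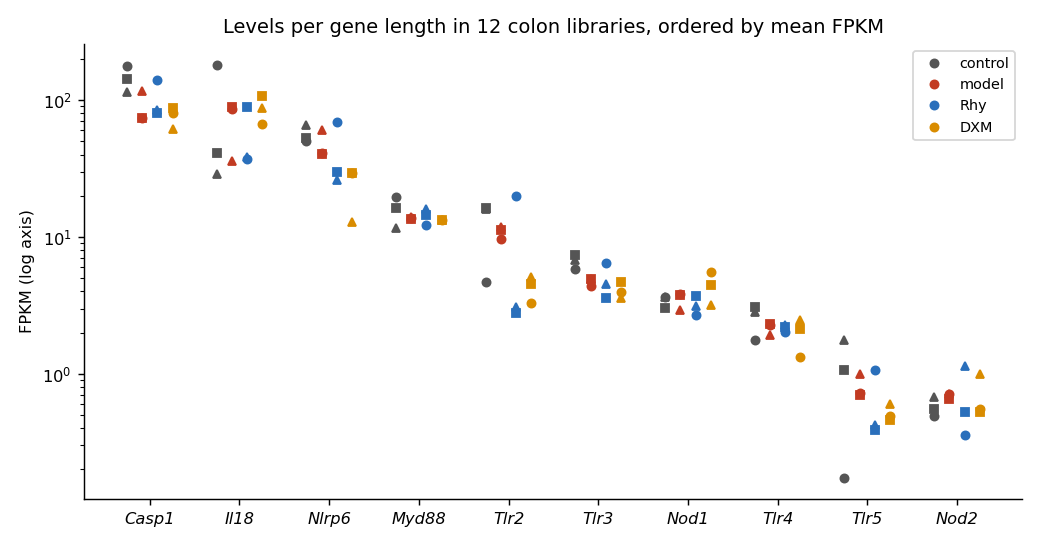
Level per length of gene, in FPKM on a log axis, of the 10 genes in the 12 libraries, ordered by mean and coloured by group. Casp1, Il18 and Nlrp6 are highest, between 12.9 and 181.5 FPKM, and Tlr5 and Nod2 are lowest.

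In the comparison of model with control, which asks what DSS changed, no member had an adjusted p under 0.05 (edgeR's quasi-likelihood test, smallest adjusted p 0.495), and 0 of the 16904 genes had one. DESeq2 on all libraries gave no p for Tlr2 and called 0 of the other members, beside 0.154% of 29929 genes. At an unadjusted p under 0.05, 1 member was lower and 0 were higher, beside 9.62% of all genes (4.51% lower). Over all genes, 863 were higher and 763 lower at this threshold, and with RLE scaling 666 and 980. A negative log2 fold change was found for 8 members and a positive one for 2, with a median of −0.19, beside a median of 0.01 over all genes.

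The member with the smallest p was Casp1 (ENSMUSG00000025888, chr9:5298517-5307265, + strand of GRCm38), the protease that matures interleukin-18. Casp1 was at 266.7, 209.9 and 170.6 CPM in the control libraries and at 114.3, 115.3 and 178.2 CPM in the model libraries. Model 1 and model 2 were low and model 3 lay within the control range, so the groups overlapped. The log2 fold change was −0.67 ± 0.28 (SE, n = 3 and 3), a mean of 135.9 ± 36.6 CPM (SD) against 215.7 ± 48.3 CPM, with an edgeR adjusted p of 0.495. Without control 3, model 3 and Rhy 1, which leaves model 1 and model 2, the most alike pair, as the whole model group, the log2 fold change of Casp1 was −1.09 ± 0.23 (edgeR adjusted p = 0.167). It was then the 1 member at an unadjusted p under 0.05, beside 15.6% of all genes. With model 1 and model 2 as 1 library as 1 library Casp1 was at −0.56 ± 0.32 (edgeR adjusted p = 0.887). In the same comparison, 3 of 12 epithelial markers were lower at an unadjusted p under 0.05 and 0 higher, beside 4.51% of all genes lower, among them Krt20 (−0.94) and Vil1 (−0.62), with sums of 25290 to 32580 CPM in model and 27370 to 43810 CPM in control. Of 10 macrophage markers, 2 were lower, Csf1r (−1.15) and Mrc1 (−1.15), with sums of 248.4 to 255.9 CPM and 236.9 to 417.5 CPM. No marker of either list was at 0, and their part in the value of Casp1 was not tested.

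Tlr3 (ENSMUSG00000031639, chr8:45395665-45411080, − strand) was at 30.4, 37.6 and 35.0 CPM in control and at 23.4, 26.7 and 26.4 CPM in model. All model libraries were below all control libraries. The log2 fold change was −0.43 ± 0.22, with an edgeR adjusted p of 0.548 and an exact two-sided permutation p of 0.1, the smallest that 3 against 3 libraries can give. With model 1 and model 2 as 1 library it was −0.42 ± 0.26. Nod2 (ENSMUSG00000055994, chr8:88647315-88688474, + strand), whose product recognizes muramyl dipeptide, was the other member with no overlap, at 2.47, 2.71 and 3.35 CPM in control and 3.69, 3.40 and 3.63 CPM in model. Its 3 model libraries were the higher ones by a small step, and the log2 fold change was 0.33 ± 0.43 on counts of 33 to 67 reads, or 0.34 ± 0.50 with model 1 and model 2 as 1 library. Over all genes, 10.4% did not overlap with model higher and 6.61% with model lower.

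Il18 (ENSMUSG00000039217, chr9:50554827-50581840, + strand) was at 186.5, 42.0 and 29.4 CPM in control and at 91.2, 95.2 and 37.5 CPM in model. Control 1 was the highest of all 12 libraries and control 3 the lowest. The log2 fold change was −0.20 ± 0.62 and turned to 1.06 ± 0.48 without control 1 (edgeR adjusted p = 0.509) and to 0.08 ± 0.67 without model 3. Il18 overlaps Bco2 and Tex12 on the opposite strand, which had 28 to 187 and 4 to 41 counts per library, and whether the counting used strand was not given in the sources used here.

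Tlr2 (ENSMUSG00000027995, chr3:83836272-83841767, − strand) was at 14, 48.0 and 47.6 CPM in control and at 30.0, 34.9 and 36.3 CPM in model. The model libraries lay between control 1 and the other 2 control libraries. Tlr5 (ENSMUSG00000079164, chr1:182954788-182976044, + strand) showed the same arrangement, with 0.824, 5.08 and 8.34 CPM in control and 3.58, 3.46 and 4.88 CPM in model. Their log2 fold changes were −0.12 ± 0.66 and −0.26 ± 0.63.

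Nlrp6 (ENSMUSG00000038745, chr7:140920902-140929192, + strand) was at 255.4, 265.8 and 329.9 CPM in control and at 215.0, 210.5 and 312.3 CPM in model. Model 3 lay among the control libraries, and the log2 fold change was −0.21 ± 0.39. Tlr4 (ENSMUSG00000039005, chr4:66827584-66930284, + strand), Nod1 (ENSMUSG00000038058, chr6:54923949-54972612, − strand) and Myd88 (ENSMUSG00000032508, chr9:119335934-119341411, − strand) had log2 fold changes of −0.19, 0.08 and −0.15, with overlapping groups. Myd88 stood at 40.5 ± 10.4 CPM (SD, n = 3) in control and 36.5 ± 0.509 CPM in model. Its 5′ part overlaps Acaa1a on the opposite strand, which had 1471 to 2840 counts per library.

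**Figure D2:**
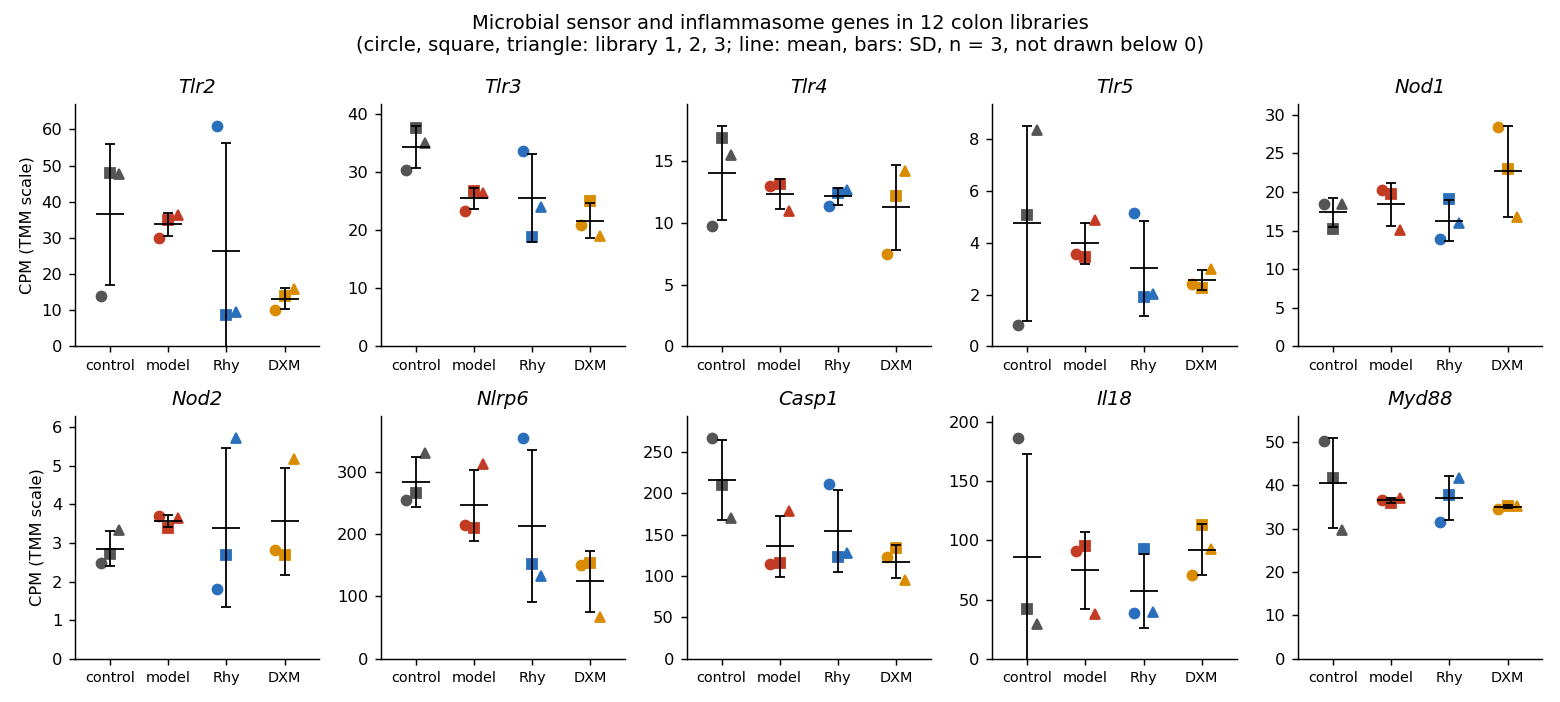
CPM of the 10 genes in each library, 1 panel per gene, with the group mean (line) and SD (bars, n = 3, not drawn below 0). Casp1 is highest in the control group, Nlrp6 and Tlr2 are low in all DXM libraries, and Rhy 1 stands far above Rhy 2 and Rhy 3 for Tlr2 and Nlrp6.

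The comparison of Rhy with model asks what the alkaloid changed under DSS, and it uses the same model libraries as the comparisons of model with control and of DXM with model. No member passed, at an adjusted p (smallest 0.9997 in edgeR) or at an unadjusted p under 0.05, beside 3.72% of all genes at an unadjusted p under 0.05. DESeq2 on all libraries, which gave no p for Tlr2, called 0 of the other members and 0.0167% of 29929 genes at an adjusted p under 0.05. The log2 fold changes of the members ran from −0.41 for Tlr5 to 0.18 for Casp1, and 0 members had groups that did not overlap, beside 5.51% of all genes with Rhy higher and 6.02% with Rhy lower.

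The intervals left room for change in several genes. The 95% interval of the log2 fold change was −0.40 to 0.44 for Myd88 and −0.47 to 0.47 for Tlr3, but −1.81 to 1.08 for Tlr2, −1.80 to 0.98 for Tlr5 and −1.75 to 0.98 for Il18. Tlr2, Tlr5 and Il18 were the members with the widest spread within groups over all 4 groups. Tlr2 was at 61.0, 8.55 and 9.39 CPM in the Rhy libraries. Rhy 1 was the highest of all 12 libraries for Tlr2, and Rhy 2 and Rhy 3 were the lowest. Nlrp6 was at 354.0, 152.7 and 132.7 CPM in the Rhy libraries, and Rhy 1 was again the highest of all 12.

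These values moved with each Rhy library. Without Rhy 1, the log2 fold change of Tlr2 against model moved from −0.36 ± 0.66 to −1.91 ± 0.46 (edgeR adjusted p = 0.658), and that of Nlrp6 moved from −0.21 ± 0.39 to −0.78 ± 0.34 (edgeR adjusted p = 0.802). Without Rhy 2 or Rhy 3, Tlr2 was at 0.06 ± 0.65 or 0.04 ± 0.67, and Nlrp6 at −0.02 ± 0.44 or 0.04 ± 0.41. Without all 3 libraries that are low in Hoxb13, which leaves model 1 and model 2 as the whole model group, Tlr2 was at −1.82 ± 0.49 (edgeR adjusted p = 0.498), and it was the 1 member with an unadjusted p under 0.05, beside 8.42% of all genes. With the Hoxb13 level as a covariate in a fit of all libraries, Tlr2 was at −1.15 ± 0.48 (edgeR adjusted p = 0.881).

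For the other members, Il18 was at −0.39 ± 0.62 and Tlr5 at −0.41 ± 0.64 on the log2 scale in Rhy against model, and Casp1 at 0.18 ± 0.28. Casp1 was at 211.2, 122.8 and 128.0 CPM in the Rhy libraries, and Tlr3 at 33.7, 18.8 and 23.9 CPM. Rhy 1 was the highest Rhy library for both. Nod2 ran from 1.80 to 5.71 CPM and Il18 from 38.4 to 93.1 CPM over the Rhy libraries. Nod2 spanned the 3 model values and Il18 lay within their range. Tlr4 (11.4 to 12.6 CPM), Nod1 (13.9 to 19.1 CPM) and Myd88 (31.6 to 41.8 CPM) also overlapped the model group, with log2 fold changes of −0.03, −0.17 and 0.02.

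DXM against model compares the glucocorticoid with DSS alone. No member passed an adjusted p of 0.05 in edgeR (smallest 0.637), and 1 member was lower at an unadjusted p under 0.05, beside 7.69% of all genes (2.8% lower). DESeq2 on all libraries, which gave no p for Tlr2, called 0 of the other members and 0.174% of 29929 genes at an adjusted p under 0.05. All DXM libraries were below all model libraries for 4 members, Tlr2, Tlr5, Nlrp6 and Myd88, beside 12.2% of all genes. Over all genes, 827 were higher and 473 lower at an unadjusted p under 0.05, and with upper-quartile scaling 1020 and 333.

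Nlrp6 was at 151.2, 153.5 and 67.7 CPM in the DXM libraries, below the model libraries at 210.5 to 312.3 CPM. Mean Nlrp6 was 124.1 ± 48.9 CPM (SD) against 245.9 ± 57.5 CPM, a fold change of 0.505. The log2 fold change was −0.99 ± 0.40 (edgeR unadjusted p = 0.0285, adjusted p = 0.637). It was −0.69 ± 0.39 without DXM 3 and −0.76 ± 0.44 without model 3, with edgeR unadjusted p-values of 0.106 and 0.111. It was −0.76 ± 0.32 without the libraries low in Hoxb13, where Nlrp6 and Tlr2 had an unadjusted p under 0.05 beside 9.11% of all genes, and −0.76 ± 0.29 with Hoxb13 as a covariate. With model 1 and model 2 as 1 library it was −1.08 ± 0.45 (edgeR adjusted p = 0.932).

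Tlr2 had the largest fold change of the members, from 33.7 ± 3.30 CPM (SD) in model to 13.3 ± 2.97 CPM in DXM. The DXM libraries were at 10.01, 13.9 and 15.8 CPM, all below the lowest model library at 30.0 CPM. The log2 fold change was −1.35 ± 0.67 with an edgeR adjusted p of 0.662, and the error was taken from all 4 groups, in which the control and Rhy libraries were widely spread. Fitted on the 6 model and DXM libraries alone, Tlr2 was at −1.34 ± 0.20 with an edgeR adjusted p of 0.179, and DESeq2 on these 6 gave −1.33 ± 0.25 with an adjusted p of 7.3e-05. With model 1 and model 2 as 1 library as 1 library, DESeq2 gave −1.36 ± 0.31 and an adjusted p of 0.00526. Tlr2 was the 1 member that DESeq2 called in these fits, beside 2.08% and 0.606% of all genes.

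Tlr5 was at 2.40, 2.27 and 2.99 CPM in DXM, below the model libraries, with a log2 fold change of −0.64 ± 0.64 on 35 to 82 reads. Myd88 was at 34.6, 35.1 and 35.3 CPM in DXM and 36.6, 36.0 and 37.0 CPM in model. The Myd88 groups did not overlap, yet the log2 fold change was only −0.06 ± 0.19, with a 95% interval of −0.48 to 0.36, and it was 0.01 under upper-quartile scaling. Casp1 (95.01 to 134.5 CPM in DXM), Tlr3 (19.0 to 25.0 CPM) and Il18 (70.5 to 113.3 CPM) overlapped the model group, with log2 fold changes of −0.21, −0.24 and 0.30. Nod1 was at 28.5, 22.9 and 16.7 CPM in DXM, a log2 fold change of 0.30 ± 0.23.

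Markers of other cell types moved in the same comparison. Of 10 macrophage markers, 5 were higher in DXM than in model at an unadjusted p under 0.05 and 0 were lower, beside 4.89% of all genes higher, with a summed level of 309.3 to 752.6 CPM in DXM and 248.4 to 255.9 CPM in model, and no marker was at 0. The 12 epithelial markers had 1 higher and 1 lower, with sums of 19780 to 34020 CPM and 25290 to 32580 CPM. Of 7 smooth muscle markers, 2 were higher and 0 lower, with sums of 5018 to 9102 CPM and 3585 to 4713 CPM. Of 8 neutrophil markers, 4 were tested and 1 was higher, S100a8 (4.31), with sums of 198.2 to 282.6 CPM and 30.6 to 118.4 CPM, and 1 of the 8 was at 0. S100a8 was near the floor, at 0 to 0.243 CPM in model and 0.411 to 4.66 CPM in DXM, a small part of these sums. Ly6g was at 1.35 (edgeR unadjusted p = 0.334). In control, the neutrophil sum ran from 3.35 to 687.3 CPM. Its lowest values over the 12 libraries were 3.35 CPM in control 3, 24.3 CPM in Rhy 1 and 30.6 CPM in model 3, the libraries low in Hoxb13. The part of these cell types in the values of Tlr2 and Nlrp6 was not tested.

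Against control, the DXM group had the largest number of lower members. At an unadjusted p under 0.05, 3 members were lower, Casp1, Tlr3 and Nlrp6, and 0 were higher, beside 18.9% of all genes (10.2% lower). Over all genes, 1467 were higher and 1722 lower, and with upper-quartile scaling 2053 and 1299. The same 3 had groups that did not overlap, beside 8.89% of all genes. No member passed an adjusted p of 0.05 in edgeR (smallest 0.150). The median log2 fold change of the 10 members was −0.49, and that of all genes was 0.06.

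Nlrp6 was at 124.1 ± 48.9 CPM in DXM and 283.7 ± 40.3 CPM in control, a log2 fold change of −1.19 ± 0.40 (edgeR adjusted p = 0.163). Casp1 was at 117.5 ± 20.3 CPM in DXM and 215.7 ± 48.3 CPM in control, −0.88 ± 0.28 (edgeR adjusted p = 0.150). Tlr3 was at 21.6 ± 3.03 CPM in DXM and 34.3 ± 3.66 CPM in control, −0.67 ± 0.22 (edgeR adjusted p = 0.157). All 3 kept an unadjusted p under 0.05 whichever library was left out. DESeq2 on all libraries gave adjusted p-values of 0.0432 for Nlrp6, 0.0419 for Casp1 and 0.0547 for Tlr3, and 3.51% of all genes were called there. Without the libraries low in Hoxb13, 5 members were lower at an unadjusted p under 0.05, the same 3 with Tlr2 and Myd88, beside 23.6% of all genes.

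Tlr2 was lower in DXM than in 2 of the 3 control libraries, with a log2 fold change of −1.46 ± 0.68 (edgeR adjusted p = 0.269). Control 1, at 14 CPM, lay within the DXM range, and without it the value was −1.85 ± 0.67. Il18 was at 92.2 ± 21.4 CPM in DXM and 86.0 ± 87.3 CPM in control. Its log2 fold change of 0.10 ± 0.62 became 1.37 ± 0.48 without control 1 (edgeR adjusted p = 0.130) and −0.33 ± 0.60 without control 3. Tlr5 moved from −0.90 ± 0.64 to −1.39 ± 0.45 without control 1, in which it had 11 reads (edgeR adjusted p = 0.110).

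Some epithelial markers were lower in the same comparison as Nlrp6, Casp1 and Tlr3. Of the 12 markers, 5 were lower in DXM than in control at an unadjusted p under 0.05 and 0 were higher, beside 10.2% of all genes lower. The brush border gene Vil1 was at −0.85, Krt20, a keratin of mature colonocytes, at −1.33 and Epcam at −0.66 on the log2 scale. The other markers of the list reached up to 0.12, and the 12 values ran from −1.38 to 0.12 with a median of −0.44. The summed level of the 12 markers was 27370 to 43810 CPM in control and 19780 to 34020 CPM in DXM, and 0 of them were at 0. Smooth muscle markers were the opposite, with 4 of 7 higher and 0 lower, beside 8.68% of all genes higher. Their sums were 3218 to 6168 CPM in control and 5018 to 9102 CPM in DXM. The part of tissue composition in the 3 member values was not tested.

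Rhy against control gave no member at an adjusted p under 0.05 in edgeR (smallest 0.459) and 0 at an unadjusted p under 0.05, beside 11.6% of all genes. DESeq2 on all libraries, which gave no p for Tlr2, called 0 of the other members and 0.11% of 29929 genes at an adjusted p under 0.05. The log2 fold change was negative for 9 members, from −0.67 for Tlr5 to −0.09 for Nod1, and Nod2 was at 0.26. Without control 3, model 3 and Rhy 1, 4 members were lower at an unadjusted p under 0.05, beside 21.5% of all genes. They were Tlr2 at −1.80 ± 0.49, Tlr3 at −0.68 ± 0.23, Nlrp6 at −0.88 ± 0.36 and Casp1 at −0.93 ± 0.23, with edgeR adjusted p-values of 0.112, 0.149, 0.203 and 0.0969. In the test of any difference among the 4 groups, Casp1 had an unadjusted p under 0.05 (edgeR adjusted p = 0.423), beside 11.5% of all genes.

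**Figure D3:**
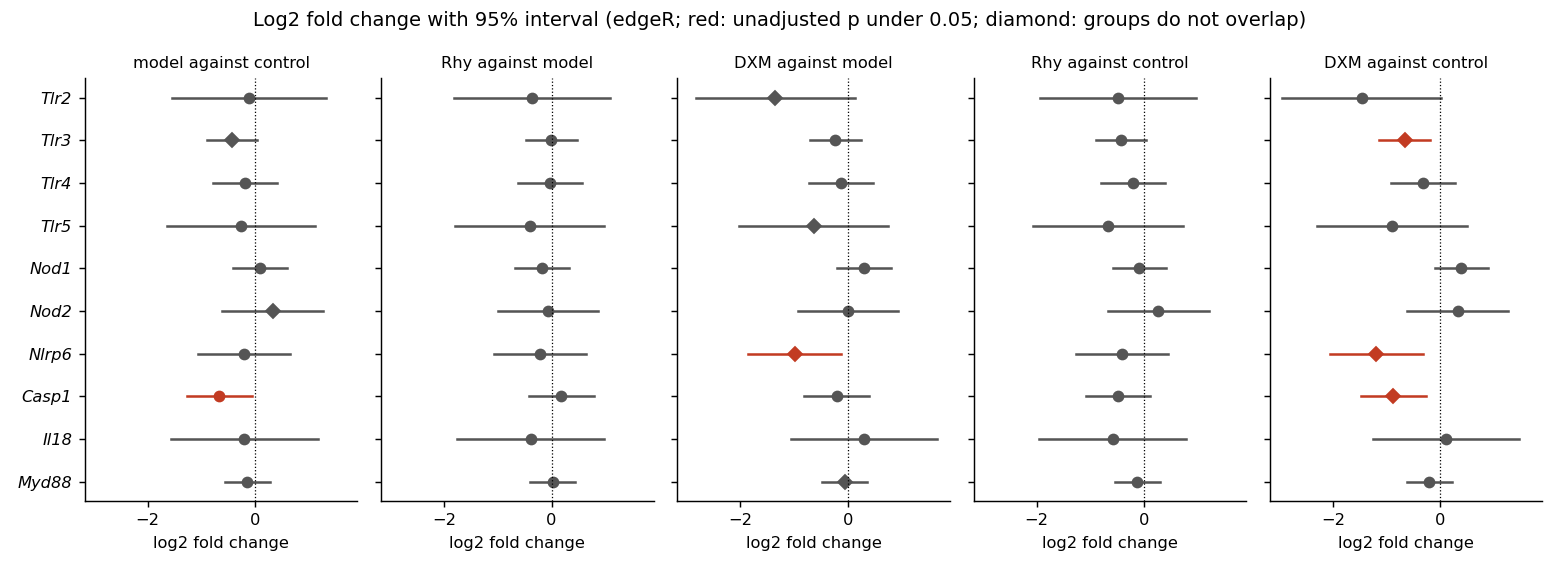
Log2 fold change of the 10 genes in each comparison from the edgeR fit of all 12 libraries, with 95% intervals as bars, red where the unadjusted p is under 0.05 and diamonds where the groups do not overlap. The intervals of Nlrp6, Casp1 and Tlr3 lie below 0 for DXM against control, and those of Tlr2, Tlr5 and Il18 are the widest in every comparison.

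How far the members varied within a group differed widely. The SD of log2 CPM within groups was 0.962 for Tlr2, 0.931 for Tlr5 and 0.895 for Il18, which placed them at the 89.8th, 88.7th and 87.4th percentile of the genes tested. Nlrp6 was at 0.544 and Nod2 at 0.493, above the median gene at 0.42. Casp1 (0.352), Tlr4 (0.329), Nod1 (0.264), Tlr3 (0.251) and Myd88 (0.218) varied less than the median gene. The distance between the highest and the lowest group mean was 2.66 times the within-group SD for Tlr3, 2.46 times for Casp1 and 2.35 times for Nlrp6, and 0.806 times for Myd88.

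Some members differed between the libraries low in Hoxb13 and the others. In control 3, model 3 and Rhy 1, which come from 3 different groups, Nlrp6 was at 312.3 to 354.0 CPM, above all of the other 9 libraries at 67.7 to 265.8 CPM. Il18 was the reverse, at 29.4 to 38.4 CPM in these 3 libraries, below all of the other 9 at 39.8 to 186.5 CPM. Cdx2, an intestinal transcription factor gene that is not a member, also did not overlap, at 391.1 to 535.0 CPM against 56.5 to 270.8 CPM. The share of all genes that separate in this way was not counted, so the split cannot be called particular to Nlrp6 and Il18. Tlr2 (36.3 to 61.0 CPM), Tlr5 (4.88 to 8.34 CPM) and Casp1 (170.6 to 211.2 CPM) were in the upper range in these libraries but overlapped the others. The DXM group held no such library, so its comparisons set groups with 1 low library in 3 against a group with 0.

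**Figure D4:**
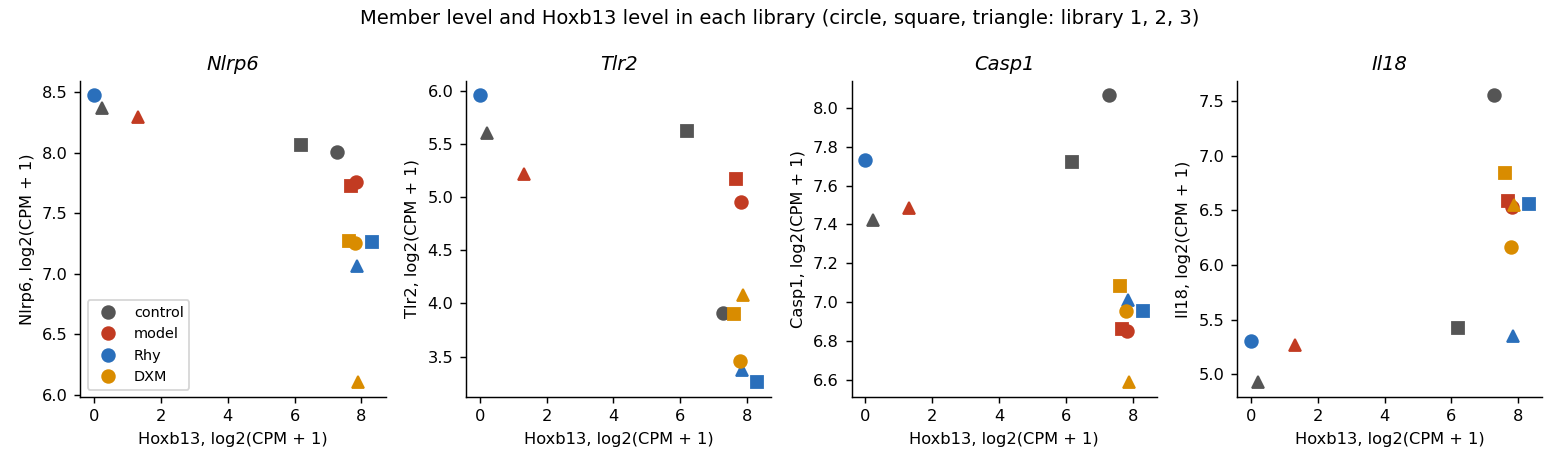
Level of Nlrp6, Tlr2, Casp1 and Il18 against the level of Hoxb13, both as log2(CPM + 1), in the 12 libraries, coloured by group with a marker per library number. The 3 libraries at the left of the Hoxb13 axis are the highest for Nlrp6 and the lowest for Il18. The share of all genes with such a split was not counted.

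The genes most alike to each member, by Pearson r of log2 CPM over the same 12 libraries, are given as a description, since the points share libraries, depth and the split by Hoxb13. Nlrp6 was most like Cdx2 (r = 0.981) and Cnnm1 (0.968), and Casp1 most like Oxa1l (0.970) and Adtrp (0.964). Il18 was nearest to Pick1 (0.948) and Hoxa11os (0.935), Tlr2 to Hps1 (0.949) and Hp1bp3 (0.942), and Tlr3 to Rb1cc1 (0.959) and Znrf2 (0.935). Tlr5 was nearest to Uhmk1 (0.966) and Slc16a9 (0.964), and Myd88 to Dpm2 (0.924) and Gm6450 (0.879). Tlr4 (Tmem2, 0.871, and Eppk1, 0.870), Nod1 (Rtl6, 0.882, and 2700081O15Rik, 0.858) and Nod2 (Entpd7, 0.872, and Ankdd1b, 0.855) had the loosest partners. Among the members themselves, Tlr3 and Nlrp6 had the highest r (0.805) and Tlr5 and Il18 the lowest (−0.788).

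The other genes of these pathways were read as fixed lists, by counts at an unadjusted p under 0.05 with no adjusted call in edgeR. Of 32 Toll-like receptor and NOD signalling genes, 4 were lower and 0 higher in model than in control, 3 lower in Rhy than in control and 12 lower in DXM than in control. The shares of all genes that were lower in these comparisons were 4.51%, 5.09% and 10.2%. Irak2, a kinase of the MyD88 complex, was at −1.16, −0.99 and −1.34 on the log2 scale in these comparisons, which share the control libraries. Tbk1, a kinase upstream of interferon genes, was at −0.57, −0.47 and −0.84, and Ticam1, the adaptor of TLR3, at −0.67, −0.67 and −1.13. The Ticam1 groups overlapped in Rhy against control. The median of the list was −0.18, −0.26 and −0.17, beside 0.01, −0.03 and 0.06 over all genes. Irak3, an inhibitor of the pathway, was the 1 gene higher in DXM than in model, at 1.04.

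Of 26 other inflammasome and pyroptosis genes, 22 were tested. In model against control, 3 were lower and 0 higher, beside 4.51% of all genes lower, led by Naip1 (−0.92), a sensor gene of the NLRC4 inflammasome, and Txnip (−0.999). In DXM against control, 4 were lower, among them Txnip (−1.39), Naip1 (−1.09) and Naip2 (−0.80), and 2 were higher, beside 10.2% and 8.68% of all genes. The Txnip groups overlapped in both comparisons, and the Naip1 groups overlapped in DXM against control. In Rhy against control, 4 were lower, among them Naip1 (−0.97) and Nlrp9b (−2.13), beside 5.09% of all genes lower, and 1 was higher, Ninj1 (0.69), whose product ruptures the membrane of dying cells. Nlrp9b was at 148.2, 45.55 and 7.30 CPM in control and 13.8, 13.9 and 18.1 CPM in Rhy. Its groups overlapped, and control 3 lay below all Rhy libraries. The list had 0 genes at this threshold in Rhy against model and 1, Casp12 (0.56), in DXM against model.

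Of the 13 other Toll-like receptor and co-receptor genes, 11 were tested. Lbp, which carries lipopolysaccharide, was the 1 gene lower in model than in control (−1.86), beside 4.51% of all genes lower. Lbp was at 19.4, 3.27 and 3.57 CPM in control and 2.98, 2.91 and 1.31 CPM in model, so control 1 carried most of the difference. Lbp and Tlr1 (−0.55) were lower in Rhy than in control, beside 5.09% of all genes lower. The Lbp groups overlapped in Rhy against control. Of 11 genes of interleukin-1 and interleukin-18 cytokines and receptors, 10 were tested. Il18rap, a chain of the interleukin-18 receptor, was at −1.30 in model against control, beside 4.51% of all genes lower. In DXM against model Il18rap was at 1.31 and Il1b at 1.93, beside 4.89% of all genes higher. Both genes were low, and both Il18rap values use the same model libraries. Il18rap was at 0.596 to 1.05 CPM in model, 1.59 to 3.1 CPM in control and 1.52 to 2.81 CPM in DXM. Il1b was at 0.298 to 2.31 CPM in model and 1.99 to 8.46 CPM in DXM, with overlapping groups. Il18 was at −0.20 ± 0.62 and 0.30 ± 0.62 in these comparisons, errors that leave room for change in either direction. Of 8 nucleic acid sensor genes, 5 were lower and 0 higher in DXM than in control, beside 10.2% of all genes lower. Zbp1 was at −0.93, Ddx58 at −0.72 and Dhx58 at −0.91, with overlapping groups. Tlr3 was at −0.67, with groups that did not overlap. Mb21d1, which encodes the DNA sensor cGAS, was at 1.32 in model against control, Zbp1 at 0.76 in Rhy against model, and Eif2ak2 at −0.45 in DXM against model. Mb21d1 was low, at 0.374, 2.02 and 4.39 CPM in control and 5.57, 6.25 and 5.30 CPM in model.

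**Figure D5:**
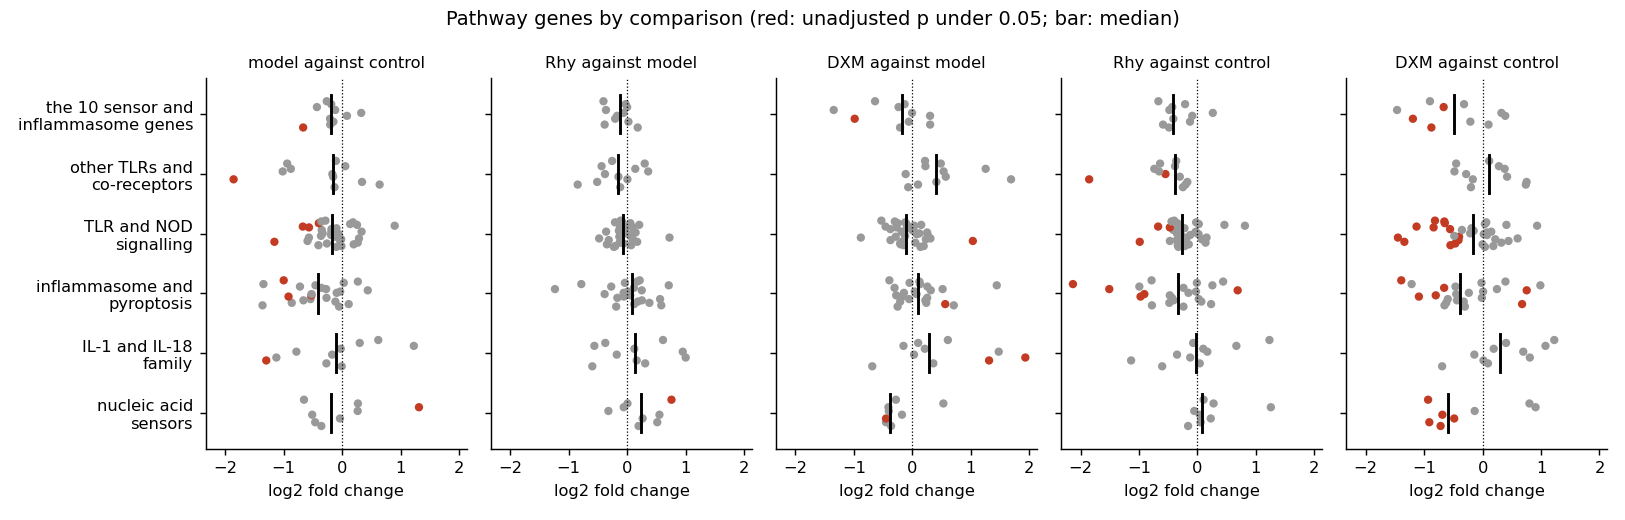
Log2 fold changes of the genes tested in each pathway list, 1 point per gene, by comparison, red where the unadjusted p is under 0.05, with the list median as a black bar. The medians of the 10 genes and of the signalling list are below 0 in each of the 5 comparisons.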

How the data were processed

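RNA-Seq measured gene expression in 12 libraries of mouse colon sections, 3 per group. The authors deposited counts, the whole number of reads on each gene, with no normalization. The deposited FPKM values were made by the authors from the same counts, per length of gene and scaled library size. The submitters' processing notes name HISAT2 2.0.5, featureCounts 1.5.0-p3, DESeq2 1.16.1 and mm10, and the strand setting was not given in the sources used here. Coordinates matched GENCODE M21 for 98.259% of the 54409 shared genes and for 10 of the 10 members. Total counts of 14346478 to 17749716 per library limit the precision of low genes, and counting error is only part of the spread.

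Counts were filtered with filterByExpr (minimum count 10; 16904 of 54532 genes), scaled by TMM and tested in R 4.3.3 with edgeR 4.0.16 (glmQLFit and glmQLFTest on group means, all 12 libraries in 1 fit, two-sided, Benjamini-Hochberg over all genes tested). A sharing of 1 spread by all groups was chosen because groups of 3 hold little information on it. CPM values are on the TMM scale. The SE of a log2 fold change came from the ratio of its size to the root of F, and 95% intervals come from the same fit. Single values were also tested with an exact permutation test, which cannot go below 0.1 here. The script was tested on simulated data. Alternatives used RLE and upper-quartile scaling, all genes with any count, DESeq2 1.42.0, limma 3.58.1 on log2(FPKM + 1) and log2(FPKM + 0.1), a replicate block, Hoxb13 as a covariate, model 1 and model 2 summed, only the groups compared, and each library left out. Fits without the 3 libraries under 2 CPM of Hoxb13, and DESeq2 on the groups compared with model 1 and model 2 summed, were added after seeing the data. The members and lists were chosen with earlier results of these data known. Named are the 10 members, at most 3 genes per list and comparison by smallest unadjusted p under 0.05, the 2 genes most alike to each member, and Hoxb13. RefSeq starts on GRCm38.p6 gave the sequence windows, with 9 of the 10 members matched by symbol. Tlr4 is named only.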

Additional observations from a re-analysis of the deposited data

How the results depend on the processing

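The number of members at an unadjusted p under 0.05 was 1 for model against control, 0 for Rhy against model, 1 for DXM against model, 0 for Rhy against control, 3 for DXM against control and 1 for any difference. The shares of all genes, in this order, were 9.62%, 3.72%, 7.69%, 11.6%, 18.9% and 11.5%. For model against control the number of members became 2 with RLE scaling, DESeq2 on all libraries and edgeR on only the groups compared. Of all genes, these fits had 1646 of 16904, 1980 of 29929 and 1581 of 15936 at this threshold. The number of members became 0 with the replicate block, with model 1 and model 2 as 1 library, and with DESeq2 on the groups compared with these summed. Of all genes, these fits had 1820 of 16904, 866 of 17346 and 866 of 27327. For Rhy against model the number of members became 1 with Hoxb13 as a covariate and 1 without the libraries low in Hoxb13. The shares of all genes there were 5.58% and 8.42%. For DXM against model the number of members became 2 with genes of any count, Hoxb13 as a covariate, edgeR or DESeq2 on only the groups compared, DESeq2 with model 1 and model 2 summed, and without the libraries low in Hoxb13. Of all genes, these fits had 1756 of 29984, 1182 of 16904, 2514 of 16287, 2644 of 28336, 1865 of 28367 and 1572 of 17253. For Rhy against control the number of members became 1 with the covariate and 4 without the low libraries, beside 14.3% and 21.5% of all genes. For DXM against control it became 5 without the low libraries, beside 23.6% of all genes. It became 4 with RLE scaling, genes of any count and edgeR or DESeq2 on only the groups compared. Of all genes, these 4 fits had 3159 of 16904, 3698 of 29984, 2244 of 16134 and 2633 of 28107. For any difference the number of members became 2 with RLE scaling, genes of any count and limma on log2(FPKM + 1), beside 1960 of 16904, 2668 of 29984 and 1904 of 16904 genes. It became 3 with DESeq2 and limma on log2(FPKM + 0.1), beside 2824 of 29929 and 1847 of 16904 genes. It became 4 without the low libraries, beside 18.2% of all genes. It became 0 with upper-quartile scaling, the replicate block and model 1 and model 2 as 1 library, beside 1996 of 16904, 1986 of 16904 and 1311 of 17346 genes. With 1 library left out, the counts ran from 0 to 2 (model against control), 0 to 2 (Rhy against model) and 0 to 2 (DXM against model). They ran from 0 to 4 (Rhy against control), 3 to 6 (DXM against control) and 0 to 4 (any difference). Without Rhy 1, the highest counts of Rhy against model, Rhy against control and any difference stood beside 1066, 2838 and 2655 of 17393 genes. In the same fit, the 2 in model against control and the 2 in DXM against model stood beside 1897 and 1694 genes. The 6 in DXM against control, without control 1, stood beside 4075 of 17347 genes. The causes were not tested. The deviations of the 18 same-numbered pairs correlated between −0.31 and 0.363, and those of differently numbered pairs between −0.406 and 0.401. These values show no sign that the numbers pair the libraries. They cannot exclude pairing, since deviations from a mean of 3 libraries are tied to each other. At an adjusted p under 0.05, the main edgeR fit called 0 genes in each comparison. In the order above for pairs of groups, edgeR with genes of any count called 1, 0, 0, 1 and 13 genes. On only the groups compared, edgeR called 1, 0, 2, 0 and 0. Some edgeR fits with 1 library left out called genes too, at most 4. DESeq2 on all libraries called 46, 5, 52, 33 and 1051, and DESeq2 on the groups compared 167, 41, 590, 2 and 395. DESeq2 on all libraries gave no p for Tlr2.

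Of 630 log2 fold changes under the other settings, 574 kept direction and side of the unadjusted threshold and 31 changed sign. In model against control these were Tlr2 (0.0032 and 0.0241 with limma, 0.2261 with the covariate, 0.02 without the low libraries), Tlr5 (0.0935 with limma, 0.1418 and 0.2062), Nod1 (−0.0183 with DESeq2 and model 1 and model 2 summed) and Il18 (0.1062 and 0.1118 with limma). In Rhy against model they were Tlr3 (0.0269 with RLE, 0.0258, 0.0189 and 0.0049 with DESeq2), Tlr4 (0.0022 with RLE, 0.0033 and 0.0298 with DESeq2, 0.003 and 0.0049 with limma, 0.0146 with model 1 and model 2 as 1 library) and Nod2 (0.2738 without the low libraries). In DXM against model they were Nod2 (0.004 with RLE and DESeq2, 0.0724 with upper-quartile scaling, 0.0154 with DESeq2 on the groups compared, 0.0214 without the low libraries), Casp1 (0.0492 without the low libraries) and Myd88 (0.0139 with upper-quartile scaling). In Rhy against control it was Nod1 (0.0486 without the low libraries), and in DXM against control Il18 (−0.2092 with the covariate, −0.3261 without the low libraries). Upper-quartile scaling put the median of all genes at 0.15 in DXM against control.

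With 1 library left out, 37 of 600 changed sign. In model against control the values ran from −0.5045 to 0.1285 for Tlr2, −0.7566 to 0.394 for Tlr5, −0.6413 to 1.0646 for Il18 and −0.3584 to 0.0359 for Myd88. In Rhy against model they ran from −1.908 to 0.0578 for Tlr2, −0.2531 to 0.1766 for Tlr3, −0.0758 to 0.021 for Tlr4, −0.6688 to 0.2336 for Nod2, −0.7844 to 0.0428 for Nlrp6, −0.1162 to 0.4531 for Casp1 and −0.0739 to 0.1233 for Myd88. In DXM against model they ran from −0.3297 to 0.0904 for Tlr4, −0.3751 to 0.1593 for Nod2 and −0.3221 to 0.0506 for Casp1. In Rhy against control they ran from −1.2758 to 0.0047 for Tlr5, −0.2149 to 0.0155 for Nod1, −0.3402 to 0.5619 for Nod2, −1.13 to 0.6797 for Il18 and −0.3182 to 0.0576 for Myd88, and in DXM against control from −0.0471 to 0.4879 for Nod2 and −0.3252 to 1.3697 for Il18. With 3 libraries a group, depth limited Tlr5 (11 to 152 reads) and Nod2 (21 to 102 reads) most.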
